A study of Rattus norvegicus with 22 samples.

Results

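Mt1a and Mt2A are the metallothionein genes in the table of liver transcripts deposited for female offspring, found there by their symbols (gene IDs 24567 and 689415, both on chromosome 19 of that table). They are 2 of its 69 rows, and 2 of 1434 rows in the tables of both sexes. Neither is among the 1365 rows of the male table, so their level in males was not analysed here. The study sequenced liver RNA of Wistar rats at postnatal day 110 born to mothers on an obesogenic diet (MO, for maternal obesity) or on a control diet. The groups used were 6 control females, 5 MO females, 6 control males and 5 MO males, with 1 library per animal, and the labels name no transgene or drug in any group. They name no litters either, so the spread reported is that between these animals, whatever mothers they share.

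Both tables hold transcripts that the authors had already listed for a difference between MO and control animals. The pair was thereby selected on its MO and control values in females, so its group difference is described here without a test. Values per animal are reads scaled to a library of 1000000 (RPM). Read from the spacing of low values, depth was 9173000 to 11768000 reads in controls and 10467000 to 11710000 reads in MO females. RPM is not scaled to transcript length, so the levels of both genes are not compared with each other. None of the 7 hepatocyte markers looked for stands in the female table, so the tissue label could not be checked there. Of the 41 markers of other cell types, only the elastase Cela1, known from the pancreas, was listed.

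Metallothioneins are small proteins rich in cysteine whose thiol groups hold zinc and copper, and cadmium where it is present. Zinc activates the transcription factor MTF1, which binds metal response elements in their promoters, and glucocorticoids and inflammatory cytokines also raise their transcription in liver. The liver isoforms, metallothionein 1 and 2, are made from neighbouring genes. In RefSeq (assembly GRCr8) the order on chromosome 19 is Mt1 (the current symbol of Mt1a), Mt2A, Mt3 and Mt4, with no other annotated gene between them.

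The promoters are shown because the pair moved together from animal to animal, and their part in this was not tested. They are the 300 bases from 250 before to 50 after the annotated gene start, from RefSeq on GRCr8, both on the minus strand, at chr19:10832926-10833225 for Mt1a and chr19:10838659-10838958 for Mt2A. Capitals mark matches to the core of the metal response element, written as TGCACNC or TGCGCNC and searched on both strands.
Mt1a: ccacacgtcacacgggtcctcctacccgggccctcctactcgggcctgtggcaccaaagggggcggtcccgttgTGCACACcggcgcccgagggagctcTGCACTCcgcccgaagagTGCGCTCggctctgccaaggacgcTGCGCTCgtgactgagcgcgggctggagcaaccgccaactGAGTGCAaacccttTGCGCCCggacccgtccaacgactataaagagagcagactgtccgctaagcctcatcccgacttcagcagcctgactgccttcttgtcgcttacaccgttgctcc
Mt2A: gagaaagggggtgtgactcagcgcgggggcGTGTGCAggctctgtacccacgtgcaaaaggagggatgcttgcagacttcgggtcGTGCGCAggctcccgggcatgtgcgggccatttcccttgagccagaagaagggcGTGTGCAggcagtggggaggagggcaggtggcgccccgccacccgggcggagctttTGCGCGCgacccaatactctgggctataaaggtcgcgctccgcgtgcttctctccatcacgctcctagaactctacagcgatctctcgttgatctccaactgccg
The Mt1a window held 6 matches and the Mt2A window 4, none of which shared bases with each other. Counted from the gene start, those of Mt1a began at -176, -151, -133, -109, -69 and -55, and those of Mt2A at -220, -165, -111 and -55. The match of Mt1a at -151 shared 1 base with a GC box (GGGCGG on the opposite strand). Of 33469 rat promoter windows of this length, 24.2% held at least 1 such match, 0.439% held 4 or more and 0.0388% held 6 or more. These windows were rich in G and C (65.0% in Mt1a and 63.7% in Mt2A), a property the comparison did not match. The same search gave 3 matches in Mt3, known mainly from brain, and 1 in Mt4, known from stratified epithelia.

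Each promoter of the pair also held 1 match to the core of the antioxidant response element (TGACNNNGC, in 12.1% of windows), at -101 in Mt1a and at -237 in Mt2A. A TATA box (TATAAA, in 14.2% of windows) began at -32 in Mt1a and at -31 in Mt2A. Neither window held the glucocorticoid receptor half-site TGTTCT (in 20.7% of windows) or the STAT motif TTCNNNGAA (in 8.87%). A match describes letters, and a missing one says only that those letters are not in this window.

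**Figure D1:**
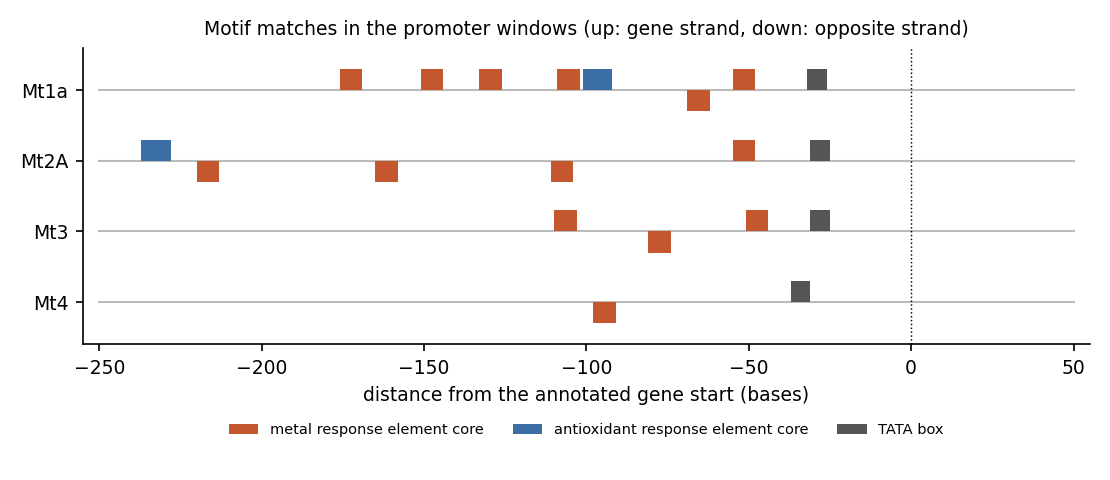
Matches to the metal response element core, the antioxidant response element core and the TATA box along the promoter windows of the 4 neighbouring metallothionein genes, in bases from the annotated gene start (x axis). Boxes above a line lie on the gene's strand and boxes below it on the opposite strand, with 6 metal response element cores in Mt1a, 4 in Mt2A, 3 in Mt3 and 1 in Mt4.

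Mt1a, which encodes metallothionein 1, was at 314, 892, 127, 324, 205 and 944 RPM in control females 1 to 6. In MO females 1 to 5 it was at 549.5, 818, 3058, 1173 and 884 RPM. Controls 2 and 6 lay above 3 of 5 MO animals, whereas the other 4 controls lay below every MO animal. MO females 3 and 4 lay above every control. The median was 319 RPM in controls and 884 RPM in MO females, and the log2 fold change on the log2(RPM + 1) scale was 1.57 ± 0.63 (SE, n = 6 and 5), about 2.96-fold.

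Mt2A, which encodes metallothionein 2, was at 91.6, 473, 37.4, 223, 56.2 and 418 RPM in control females 1 to 6. In MO females 1 to 5 it was at 277, 349, 1488, 706 and 580.4 RPM. The same 4 controls, numbers 1, 3, 4 and 5, lay below every MO animal, and controls 2 and 6 were again the high ones. MO females 3, 4 and 5 lay above every control. The median was 157 RPM in controls and 580.4 RPM in MO females, with a log2 fold change of 1.98 ± 0.67 (SE, n = 6 and 5), about 3.94-fold. The SE of each fold change is that of the limma model, which borrows variance from the other listed rows. An equal-variance model without this gave an SE of 0.64 for Mt1a and 0.79 for Mt2A. For both genes 5 of 5 MO animals were above the control mean, but the groups overlapped. Complete separation, with every MO animal above every control, was seen in 0 of the 2 genes and in 5.8% of the 69 rows.

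**Figure D2:**
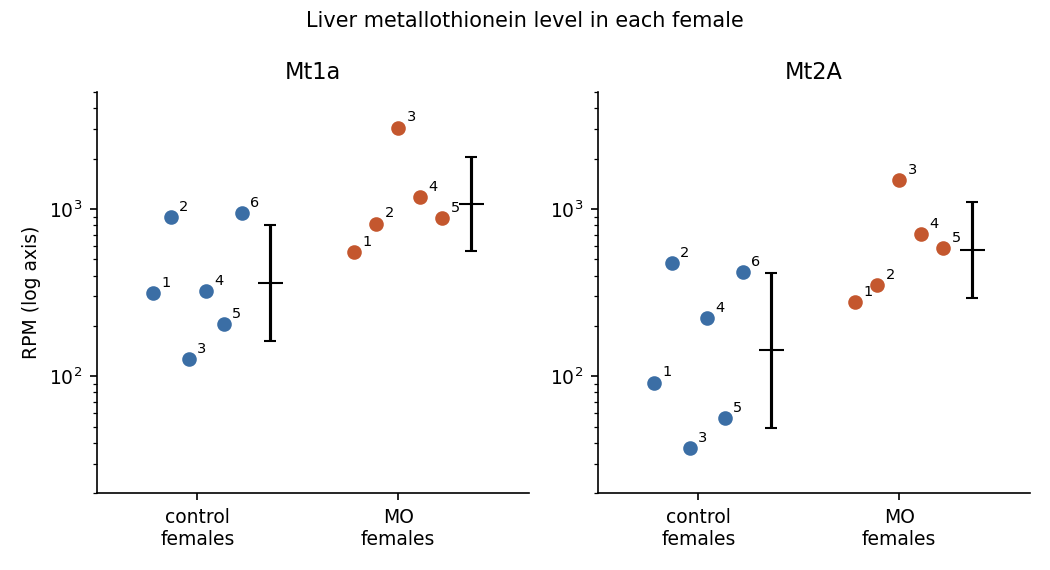
RPM of Mt1a and of Mt2A in each control and MO female (y axis, log scale), with the animal's number beside its point and the mean ± SD of the log2 values drawn in black at the right of each group. Controls 2 and 6 lie among the MO animals for both genes, and MO female 3 is the highest animal in both panels, at 3058 RPM of Mt1a and 1488 RPM of Mt2A.

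Together the pair took 0.0164% to 0.137% of all reads in controls and 0.0826% to 0.455% in MO females, with medians of 0.0476% and 0.146%. Within the controls the highest animal exceeded the lowest 7.46-fold for Mt1a and 12.7-fold for Mt2A. Within the MO females these spans were 5.57-fold and 5.38-fold. Counting error was small beside this spread, at 0.559% to 2.68% of the value for Mt1a and 0.801% to 4.93% for Mt2A if reads were sampled independently. The SD between animals of a group was 1.06 for Mt1a and 1.30 for Mt2A on the log2(RPM + 1) scale, against a median of 0.52 over the 69 rows. The median of the row means was 2.93 RPM, a level at which the added 1 narrows the log2 spread. How much of the difference in SD comes from this was not tested. Mt1a and Mt2A had the 2 highest mean RPM of the 69 rows, without scaling to transcript length. In bulk liver, a change in the number of cells that express a gene and a change in RNA per cell cannot be told apart.

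The animals stood in nearly the same order for both genes. From lowest to highest, Mt1a ranked controls 3, 5, 1, 4, 2 and 6, and Mt2A ranked controls 3, 5, 1, 4, 6 and 2. Both ranked the MO females 1, 2, 5, 4 and 3. This covariation inside a group does not use the difference between groups by which the genes were listed, and 2 such relations were tested. Both relations include the 6 controls, so they are not independent. The pair was also chosen with earlier results of these data known, which the p-values do not allow for. Among the 6 controls Pearson's r of the log2 values was 0.96 (exact permutation of pairings, two-sided, p = 0.0028, adjusted p = 0.0028), and Spearman's rho was 0.94 (exact permutation p = 0.017, adjusted p = 0.017). Controls 2 and 6 were farthest from the Mt1a median, and without them r was 0.87 in the 4 others (exact permutation p = 0.12). There rho was 1.0 with an exact permutation p of 0.083, the smallest that a rank test of 4 animals can give, so neither measure passed without those 2 controls.

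Over all 11 females, with each value taken as the deviation from the mean of its own group, r was 0.95 and rho 0.94. Pairings were permuted inside each group, which gave an exact p of 2.3e-05 for r (adjusted p = 4.6e-05) and of 3.5e-05 for rho (adjusted p = 6.9e-05). Without MO female 3 and control 6, the animals farthest from the Mt1a median, r was 0.94 in the 9 others (exact permutation p = 0.00035). Among the 5 MO females alone r was 0.97 and rho 1.0, given as a description without a test. How reads that fit both genes were counted is not given in the sources used here, and its part in the covariation was not tested.

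**Figure D3:**
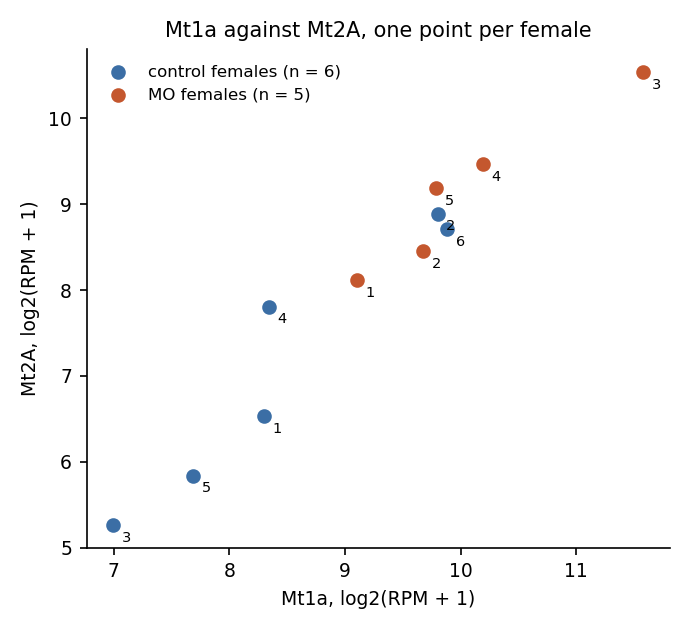
Mt2A against Mt1a in each female, both as log2(RPM + 1), with the animal's number beside its point. The points of both groups run along one diagonal from control 3 at the lower left to MO female 3 at the upper right, and controls 2 and 6 lie between the MO females.

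The proportion of the pair varied between animals, over a 2.51-fold span in controls and a 1.54-fold span in MO females. Mt2A RPM divided by Mt1a RPM was 0.291, 0.531, 0.295, 0.688, 0.274 and 0.442 in controls 1 to 6. It was 0.504, 0.426, 0.487, 0.602 and 0.656 in MO females 1 to 5. The 3 controls with the lowest levels, numbers 1, 3 and 5, also had the lowest proportion of Mt2A of all 11 animals. Mt2A changed by 1.27 log2 units per log2 unit of Mt1a among controls and by 0.98 among MO females, and the difference of these slopes was not tested. On the log2 scale the Mt2A to Mt1a ratio was 0.41 ± 0.26 higher in MO females (equal-variance SE, n = 6 and 5). This difference is given as a description because it comes from the contrast that listed the genes. It was 0.57 ± 0.22 without control 4, the control with the highest proportion of Mt2A.

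**Figure D4:**
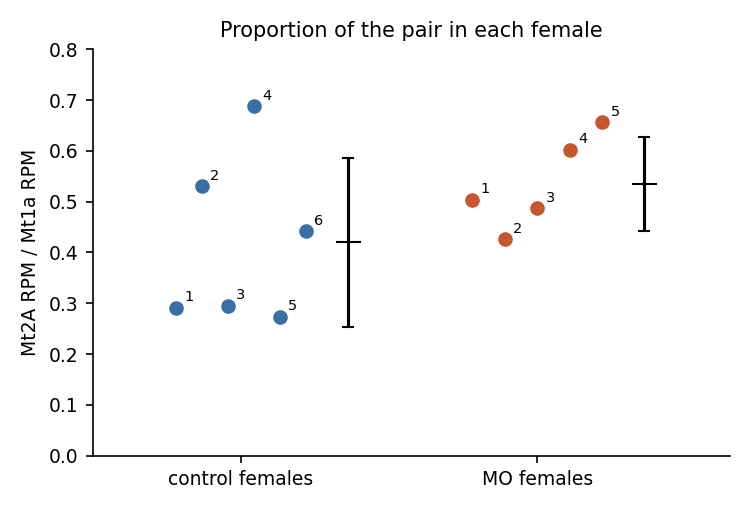
Mt2A RPM divided by Mt1a RPM in each female (y axis, from 0), with the animal's number beside its point and the mean ± SD of the group in black. Controls 1, 3 and 5 lie between 0.274 and 0.295, below the 8 other animals, which lie between 0.426 and 0.688.

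The level of the listed rows as a set moved with the pair. The median RPM over the 69 rows was 1.27 to 3.27 in controls and 1.73 to 3.82 in MO females, highest in MO female 3. Its deviations from the group mean, on the log2 scale, went with those of the pair (r = 0.65 over 11 libraries), while those of depth did not rise with it (r = -0.22). This median is taken over rows listed for the MO contrast and does not describe the whole library. Centring each library on it left the correlation of Mt1a and Mt2A at 0.95 over all females and at 0.97 in controls. The log2 fold changes were then 1.34 ± 0.48 (SE) for Mt1a and 1.75 ± 0.61 (SE) for Mt2A. As the median comes from rows selected on this contrast, centring may also remove part of the group difference.

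The rows of the female table were then ordered by how closely their deviations from the group mean followed the mean of Mt1a and Mt2A over the 11 animals, a description with no test. The median r of the 67 other rows was 0.46 and 63 were positive, which became a median of 0.02 and 34 positive after centring of the libraries. The closest was Adcy1, an adenylyl cyclase that makes cyclic AMP (r = 0.88, rho = 0.89, and r = 0.81 after centring). The next was Igfbp1, a liver-secreted binding protein of insulin-like growth factors that insulin represses (r = 0.81, rho = 0.75, and r = 0.73 after centring). Leaving out any 1 animal kept r between 0.82 and 0.93 for Adcy1 and between 0.75 and 0.87 for Igfbp1. Others among the closest were Nmrk1, a nicotinamide riboside kinase (r = 0.77), and the mast cell protease Mcpt9 (r = 0.76). After centring these were at 0.62 and 0.14.

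Adcy1 and Igfbp1 followed the pair inside each group and differed from it between groups. They were picked for the highest r, and the pattern is not particular to them. Other rows lower in MO females also had a positive r with the pair in both groups. Igfbp1 was at 155, 590, 139, 299.8, 293 and 499 RPM in controls 1 to 6 and at 31.6, 51.03, 217, 49.3 and 133 RPM in MO females 1 to 5. The controls with the most Igfbp1, numbers 2 and 6, were those with the most Mt1a and Mt2A, and MO female 3 was the highest MO animal for all 3 genes. Against the pair, Igfbp1 had r = 0.87 in the 6 controls and 0.83 in the 5 MO females. Its level was nevertheless lower in MO females, with 4 of 5 below every control, whereas the metallothioneins were higher. Adcy1 had r = 0.86 in controls and 0.94 in MO females. It was at 8.94, 14.1, 3.64, 13.1, 11.1 and 23.7 RPM in controls 1 to 6 and at 2.27, 2.001, 10.1, 5.01 and 5.12 RPM in MO females 1 to 5, and 2 of 5 MO animals lay below every control. Among the rows with the lowest r were RT1-N1, a class I histocompatibility gene (-0.08), and Cela1 (-0.02). Cela1 was at 1.27 to 6.66 RPM in controls and 0 to 0.939 RPM in MO females, and its part in the metallothionein difference was not tested.

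**Figure D5:**
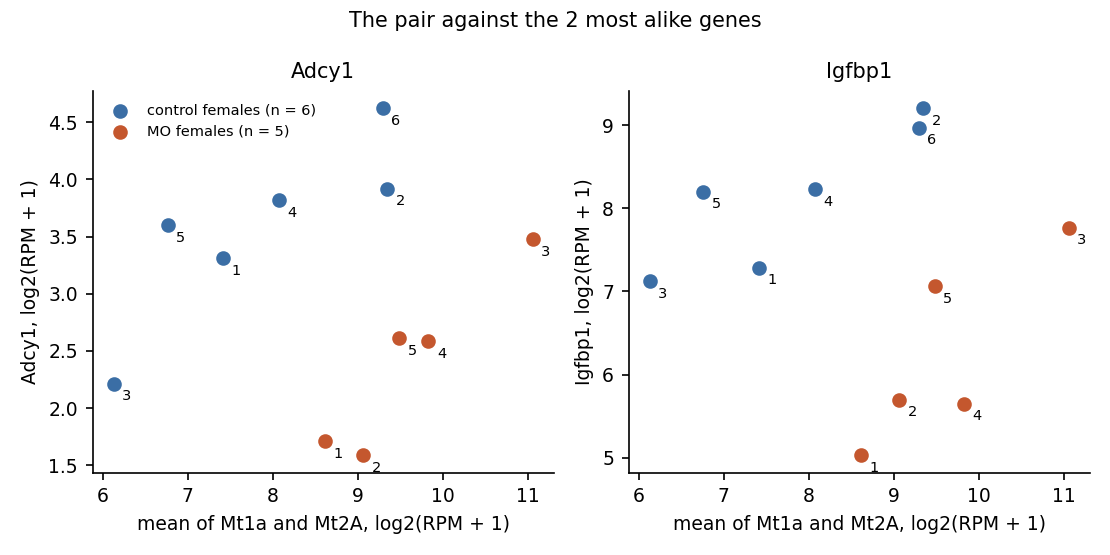
Adcy1 (left) and Igfbp1 (right) against the mean of Mt1a and Mt2A in each female, all as log2(RPM + 1), with the animal's number beside its point. Within each group animals with more metallothionein tended to have more Adcy1 and Igfbp1 (r = 0.83 to 0.94), while most MO females lie lower and further right than most controls.

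Other genes of metal handling and of the known inducers were taken from 9 lists besides the metallothioneins. In the female table no member was listed of MTF1 and its other targets (8 genes), the SLC30 zinc exporters (10), the SLC39 zinc importers (14), or copper (16) and iron handling (15). None was listed of the IL6 and acute phase (23), NRF2 and antioxidant (26) or cysteine supply (11) lists either. Only listed rows have values here, 69 in this table, so an absent gene cannot be called unchanged. Of the 20 glucocorticoid-responsive genes 3 were listed, and whether this exceeds the share of all genes listed was not tested. Igfbp1 (-1.93 ± 0.60, SE; limma adjusted p = 0.014) and the stress-inducible Gadd45b (-1.22 ± 0.46, SE; limma adjusted p = 0.027) were lower, as were 30.4% of all rows by that test. The kinase Sgk1 was at 0.79 ± 0.39 (SE; limma adjusted p = 0.059), where 50.7% of rows passed as higher. All 3 rows had been listed for this contrast. None passed an exact permutation test over the table (exact permutation adjusted p = 0.055 for Igfbp1 and Gadd45b and 0.057 for Sgk1), which only 4 of the 69 rows passed. Gadd45b did not pass limma without MO female 1, MO female 2 or control 2 (limma adjusted p = 0.067, 0.076 and 0.058). Sgk1 did pass it without control 4 or MO female 1 (limma adjusted p = 0.036 and 0.038). An equal-variance model over the table passed all 3 (adjusted p = 0.0496 for Igfbp1 and Gadd45b and 0.0499 for Sgk1). As every row of the table had been listed for this contrast, passing that model adds no support.

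In the male table, where 96.5% of the 1365 rows passed as lower and 3.52% as higher, no metallothionein, no SLC30 exporter and neither Mtf1 nor its other listed targets appeared. Of the zinc importers 3 of 14 were lower, with Slc39a8, which also carries manganese and cadmium, at -0.79 ± 0.20 (SE; limma adjusted p = 0.0040), and Slc39a7 and Slc39a3 at -0.58 and -0.52. Of the copper genes 3 of 16 were lower, namely the metalloreductase Steap3 (-1.0), the copper chaperone Atox1 (-0.61) and Ccs (-0.53), which loads copper onto superoxide dismutase. Of the iron genes 2 of 15 were lower, the ferritin heavy chain Fth1 (-0.58) and Hfe (-0.51), an upstream regulator of hepcidin. Their medians of -0.58, -0.61 and -0.55 lay near that of the whole table, -0.58. With centred libraries limma passed 0 of these 8 genes and 72 of all 1365 rows. Of the 8 genes 1, Steap3, was at an unadjusted p under 0.05, and Slc39a7, Slc39a3, Ccs, Fth1 and Hfe then lay above 0, by up to 0.07. The median used for centring is that of the listed rows, nearly all of them lower, so rows near it move towards 0. Centring therefore cannot tell a shift of the library from lower levels of these genes.

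Of the male genes linked to induction of metallothioneins, the phosphatase Dusp1 (0.68 ± 0.21, SE) and Angptl4 (0.97 ± 0.20, SE) were higher and the tryptophan dioxygenase Tdo2 (-0.96) lower among 20 glucocorticoid-responsive genes. The other counts in this paragraph stand in a table with 96.5% of rows lower and a median of -0.58. The antioxidant list had 5 of 26 listed, all lower, among them Gstm2 (-0.84) and Gstm7 (-0.72), of glutathione conjugation, and catalase, Cat (-0.65). The acute phase list had 1 of 23 lower, the lectin Mbl2 (-0.75). The list named cysteine supply had 4 of 11 lower, and not all its enzymes make cysteine themselves, Bhmt being 1 that does not. Among the 4 were Cth (-1.60 ± 0.19, SE; limma adjusted p = 8.4e-06), Bhmt (-1.54) and Cbs (-0.66). Dusp1, Angptl4 and Cth were the genes named in this paragraph that still passed after centring, which 72 of 1365 rows did. Centring on the median of these mostly lower rows raises every fold change. The 48 higher rows passed before and 48 after it, so the pass of Dusp1 and Angptl4 adds no support. Whether the metal genes differ between the sexes in their response was not tested, since the tables share no member of these lists.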

How the data were processed

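RNA was extracted from liver and libraries were made with an Illumina TruSeq RNA kit, per the labels' protocols. Build rn5, Partek and STAR 2.3.1j are named, without roles, in the submitters' processing notes. The values deposited by the authors are in RPM with 1 added, inferred from the values: after subtraction of 1, 54.9% to 61.1% of low values (under 9 RPM) per female library were whole multiples of 1 step within 0.02 of a read. The p-values and log2 fold changes deposited by the authors were not used as results.

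The limma-trend model (limma 3.58.1 in R 4.3.3) was fitted to log2(RPM + 1) in each sex, a pseudocount of 1, with no filter. P-values were adjusted by Benjamini-Hochberg over the table, at a threshold of 0.05. Rows had been selected by the authors, so adjusted p-values are no false discovery rate. The fit and the permutation test were tested on simulated data. Correlations used exact permutations (86400 within groups, 720 in controls; scipy 1.17.1). Members and lists were chosen with earlier results of these data known. Named genes were the pair, list members in the female table, up to 3 per list in males by limma p, and the 5 most and 3 least alike rows, without uncharacterised loci; 2 of these 8 are not reported here. Alternatives were pseudocount 0.1, a minimum mean of 1 RPM, centring, a replicate block, other tests and leaving out each animal.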

Additional observations from a re-analysis of the deposited data

Results flagged for a closer look

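In MO females the highest animal stood apart from the others for Mt1a. MO female 3 was at 3058 RPM and the next animal at 1173 RPM, a gap of 0.752 of the whole range against a critical value of 0.71 for 5 animals. On the log2 scale used for the other results the gap was 0.559 of the range, under that value. Of 6 such groups checked (Mt1a, Mt2A and their ratio in controls and MO females) this was the only one, and chance marks about 1 in 20. The same animal was at 1488 RPM of Mt2A, and its Mt2A to Mt1a ratio of 0.487 lay within the range of its group. Without it the log2 fold change was 1.19 for Mt1a and 1.63 for Mt2A, and the correlation of the pair within groups was 0.95.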

How the results depend on the processing

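The log2 fold changes of the pair moved by less than the spread between animals under all 16 alternatives each, over 1.19 to 1.84 for Mt1a and 1.60 to 2.32 for Mt2A, and the ratio under 12, over 0.31 to 0.57. The correlation within groups passed under all 15, from 0.93 to 0.98. In controls r was 0.93 to 0.99 when 1 animal was left out, and it no longer passed without control 3 (r = 0.93, exact permutation p = 0.067) or without controls 2 and 6 (r = 0.87), where fewer animals enter. Spearman's rho in controls no longer passed without control 1, 3, 4 or 5 (exact permutation p = 0.083 each). The count of female rows past the threshold, 56 (35 higher, 21 lower), was 34 to 53 when 1 animal was left out, with 34 without MO female 2 and 37 without MO female 5, and 45 after centring (21 higher, 24 lower). An exact permutation test passed 4 rows, with 62 at an unadjusted p under 0.05; the cause was not tested. In males centring left 72 of 1365 rows (48 higher, 24 lower, against 48 and 1317), and leaving out 1 animal 1282 to 1364. With the replicate number as a block 26 female rows passed, Igfbp1 did not (limma adjusted p = 0.065), and the pair was at 1.84 and 2.29, a fit to which control 6 adds nothing because no MO animal carries its number. Same-numbered females correlated at -0.42 to 0.33, so the numbers were not taken as pairs. The correlations of Nmrk1 and Mcpt9 with the pair, alternatives added after the data were seen, were lower after centring. Depth did not limit the pair, whose values rest on an estimated 411 to 32008 reads each.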
